A study of Mus musculus with 3 samples.

Results

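The Serpina1 and Serpina6 gene cluster on mouse chromosome 12 was examined through the peaks of 2 liver transcription factors. The region was fixed by position alone, as chr12:104850000-105400000 of build mm9, a window of 550 kb described as holding Serpina6 and the duplicated Serpina1 genes. It contained 23 of the 11703 HNF4A peaks, 18 of the 9338 FOXA2 peaks and 0 of the 1263 input regions. The peaks come from chromatin immunoprecipitation with sequencing (ChIP-seq), in which DNA crosslinked to a protein is pulled down with an antibody and the regions rich in reads are listed as peaks.

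All 3 libraries came from DLK1+ hepatoblasts, the fetal precursors of hepatocytes and bile duct cells, magnetically sorted from pooled wildtype C57BL/6 livers at embryonic day 14.5. One was made with an HNF4A antibody, one with a FOXA2 antibody and one from chromatin without immunoprecipitation (input). Sorting on DLK1 enriches hepatoblasts, and the lists of peaks give no means to check the purity of the cells. With 1 library for each antibody there is no replicate check and no test of any difference below.

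The Serpina1 genes encode alpha-1-antitrypsin, a protease inhibitor that the liver secretes in large amounts and that protects tissue from neutrophil elastase. Humans have a single SERPINA1 gene, whereas mice carry several close copies. Serpina6 encodes corticosteroid-binding globulin, the carrier of glucocorticoids in blood, which is also made by the liver. HNF4A, a nuclear receptor that binds DNA as a homodimer, is a main regulator of genes for secreted liver proteins. FOXA2 belongs to the forkhead family and opens chromatin for other liver factors.

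In the RefSeq gene table, which is of build GRCm38.p6, all 6 members were found on chromosome 12 in the order Serpina6, Serpina1b, Serpina1d, Serpina1a, Serpina1c and Serpina1e. Serpina16 and Serpina1f lie between Serpina6 and Serpina1b. Serpina10, which encodes the inhibitor that works with protein Z in coagulation, is on the Serpina6 side, and Serpina11 and Serpina9 are on the Serpina1e side. The same table lists 7 pseudogenes and 1 long non-coding RNA gene between Serpina6 and Serpina1e. No annotation of build mm9 was used here, so the order of genes gives the make-up of the locus, and no peak is tied to one gene.

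The copies are alike at their promoters, which bears on how reads can be placed. RefSeq promoter sequences of 300 bases (GRCm38.p6, from 250 bases before to 50 after the gene start) were found for 5 of the 6 members, Serpina1a, Serpina1b, Serpina1c, Serpina1d and Serpina1e. A stretch of 72 bases from each is shown because it holds every motif match found in these promoters; the copies also differ outside it. Capitals mark GTTAAT (a core motif of HNF1, a homeodomain factor of the liver), TGTTTGC (a forkhead motif) and any stretch within 1 mismatch of the HNF4 motif CAAAGTCCA on either strand. All lie on the minus strand and are printed 5′ to 3′ in the direction of the gene, with GRCm38.p6 positions that cannot be set beside the mm9 positions of the peaks.

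Serpina1a, chr12:103863626-103863697: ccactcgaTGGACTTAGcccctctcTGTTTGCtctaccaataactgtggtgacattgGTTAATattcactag
Serpina1b, chr12:103738201-103738272: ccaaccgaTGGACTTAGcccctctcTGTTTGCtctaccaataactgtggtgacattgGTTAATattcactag
Serpina1c, chr12:103904963-103905034: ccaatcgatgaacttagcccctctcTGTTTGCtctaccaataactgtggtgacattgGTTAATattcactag
Serpina1d, chr12:103773635-103773706: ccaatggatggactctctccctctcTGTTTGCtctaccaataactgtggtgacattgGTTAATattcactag
Serpina1e, chr12:103956961-103957032: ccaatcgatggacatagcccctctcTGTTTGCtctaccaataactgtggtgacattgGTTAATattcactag

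All 5 promoters held the forkhead motif TGTTTGC and the HNF1 core motif GTTAAT, with 25 bases between them in each copy. Among all 32851 promoters in the table, 5.07% held TGTTTGC and 7.1% held GTTAAT on either strand, and 139 promoters (0.423%) held both. The other forkhead motif searched, TGTTTAC, was in none of the 5 promoters and in 3.65% of all. The copies are nearly identical here, so their common motifs are not independent occurrences. Of 17 promoters of 14 other genes whose symbols begin with Serpina, 2 held a forkhead motif and 3 the HNF1 core motif.

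The HNF4 motif was matched in some copies and not in others, and only with 1 mismatch allowed. The exact letters CAAAGTCCA were in none of the 5 promoters, against 0.475% of all promoters. With 1 mismatch allowed, TGGACTTAG, in the reverse orientation, matched in Serpina1a and Serpina1b, 8 bases before the forkhead motif, and no match was found in the windows of Serpina1c, Serpina1d and Serpina1e. In these last copies the letters at the same place also resemble the motif but exceed 1 mismatch, so the split rests on that limit. That looser motif was in 8.47% of all promoters and in 3 of the 17 promoters of other Serpina genes. A match of letters is a description and does not show where a factor binds.

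**Figure D1:**
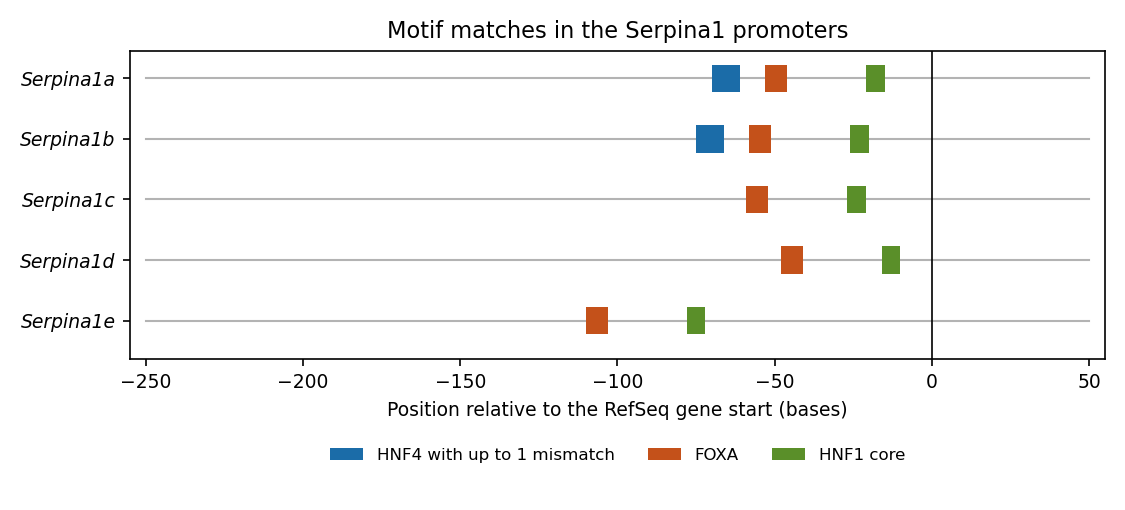
Positions of motif matches in the 5 Serpina1 promoters of RefSeq, in bases from the gene start, with 1 row per gene and 1 colour per motif. The forkhead and HNF1 matches are present in every copy, and the HNF4 match with up to 1 mismatch is in Serpina1a and Serpina1b. Serpina1e appears shifted to the left because its listed start lies further downstream.

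Over the 10 pairs of copies, promoter identity ranged from 63.9% to 91.4% with a median of 86.1% when every gap counted, and from 91.4% to 97.6% with a median of 94% when gaps at the ends were left out. The lower values belong to pairs with Serpina1e, whose listed start differs. A run of 59 bases was identical in all 5 copies, and the longest run common to a pair was 119 bases, between Serpina1b and Serpina1e. Of all stretches of 36 bases in a promoter, the part that also occurred in the promoter of another copy was 22.3% for Serpina1a, 50.6% for Serpina1b, 27.2% for Serpina1c, 40.8% for Serpina1d and 63.8% for Serpina1e. For stretches of 50 bases these parts ranged from 10.8% in Serpina1a to 56.2% in Serpina1e. Only the promoter windows of the copies were compared, not the pseudogenes or the rest of the genome, so these parts are lower limits. Reads of such length from these stretches would have more than one possible origin. The read length, and how reads with several possible positions were handled, are not stated in the sources used here, and their part in the pattern of peaks was not tested.

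Both factors had many peaks along the window, and 8 sites carried both. The peaks merged into 33 sites, of which 8 were covered by both factors, 15 by HNF4A alone and 10 by FOXA2 alone. The 8 shared HNF4A peaks made up 34.8% of the 23 in the window (95% Wilson interval 18.8 to 55.1%, which covers counting error only), against 24.4% of the whole HNF4A list. The 8 shared FOXA2 peaks were 44.4% of 18 (24.6 to 66.3%), against 30.7% of the whole FOXA2 list. Both intervals include the share of the whole list, but they treat neighbouring peaks as independent, and the difference was not tested. On the rest of chromosome 12 the shares were 29.6% of 446 HNF4A peaks and 33.4% of 395 FOXA2 peaks.

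**Figure D2:**
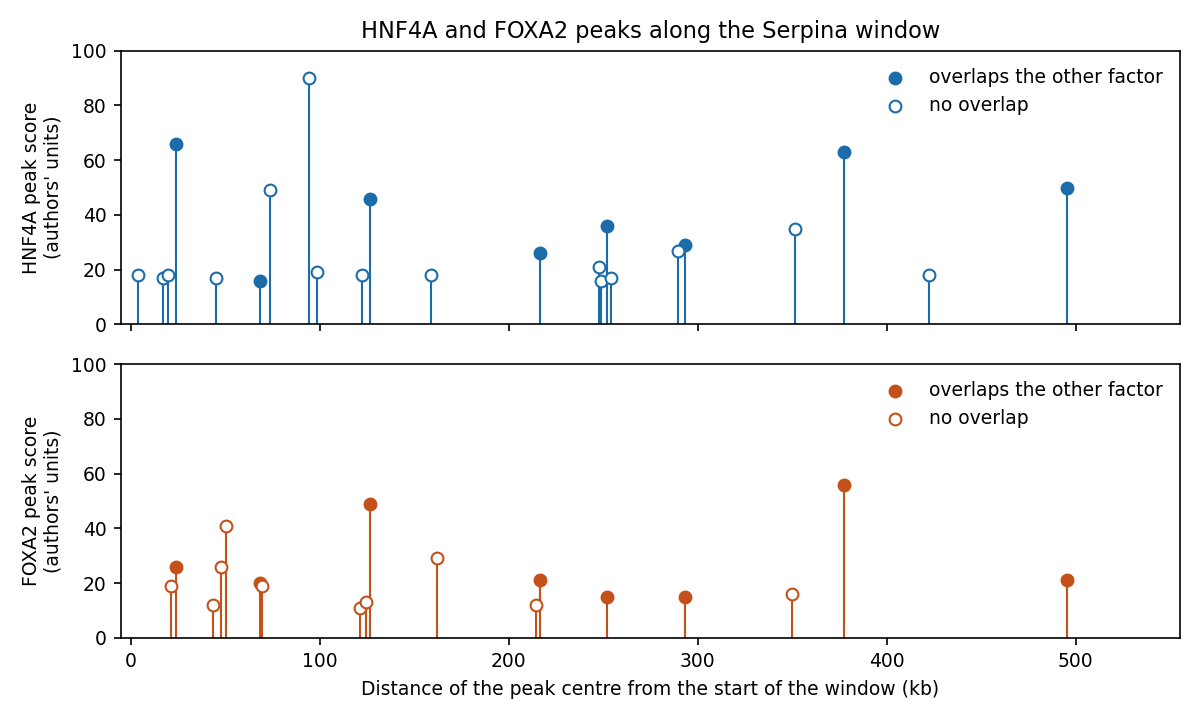
Score of each HNF4A peak (upper panel, 23 peaks) and each FOXA2 peak (lower panel, 18 peaks) against the distance of its centre from the start of the window in kb. Filled points overlap a peak of the other factor and open points do not; the scores are the authors' own and the scales of the 2 panels cannot be compared. The highest HNF4A point, at a score of 90, is open, and the highest FOXA2 point, at 56, is filled.

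The score is a whole number that the authors gave each peak, without a stated definition, so ranks are given within a list, where rank 1 is the highest score and tied peaks take the best rank of the tie. The site with high standing in both lists was number 7 of the 8 shared sites along the window. HNF4A there, at chr12:105227097-105227666, had a score of 63 (rank 440 of 11703). FOXA2 at chr12:105227197-105227751 had a score of 56 (rank 201 of 9338). That FOXA2 peak was the highest of the window. The third shared site paired HNF4A at chr12:104976404-104976787, with a score of 46 (rank 1242), and FOXA2 at chr12:104976272-104976867, with a score of 49 (rank 338). At these positions at most 11.2% of the HNF4A list and 3.86% of the FOXA2 list scored as high or higher.

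At other shared sites the HNF4A peak stood higher in its list than the FOXA2 peak in its own. The first paired HNF4A at chr12:104874056-104874403 (score 66, rank 368) with FOXA2 at chr12:104874057-104874423 (score 26, rank 1588). The last, toward the far end of the window, paired HNF4A at chr12:105345093-105345508 (score 50, rank 969) with FOXA2 at chr12:105345101-105345444 (score 21, rank 2396). Both of these HNF4A peaks were in the top 10.6% of their list, whereas neither FOXA2 peak reached the top 10.2%.

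A pair of shared sites in the middle of the window resembled each other. HNF4A at chr12:105101721-105102332 had a score of 36 (rank 2341) and met FOXA2 at chr12:105101767-105102275 with a score of 15 (rank 4429). HNF4A at chr12:105143131-105143596 had a score of 29 (rank 3681) and met FOXA2 at chr12:105143081-105143619, also with a score of 15 (rank 4429). These FOXA2 peaks were at the median score of the list. All 4 peaks were wider than the median of their list, at 612 and 466 bp for HNF4A, against 430 bp, and at 509 and 539 bp for FOXA2, against 367 bp.

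The remaining shared sites were lower for HNF4A. HNF4A at chr12:105066104-105066614 (score 26, rank 4533) overlapped FOXA2 at chr12:105066228-105066691 (score 21, rank 2396). HNF4A at chr12:104918087-104918481 stood at 16, the lowest score of its list (rank 10522, tied with 1182 peaks in all), and overlapped FOXA2 at chr12:104918058-104918452 (score 20, rank 2633). This was the one shared site with a peak at the threshold of a list.

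The overlapping peaks were closely centred. The distances between centres over the 8 pairs ran from 5.5 bp to 100.5 bp with a median of 27 bp, and 7 pairs lay within 100 bp. Over the 2858 shared HNF4A peaks of the series the median was 58.5 bp, and 2086 lay within 100 bp. In every pair of the window at least 83.4% of the shorter peak was covered by the other. The closest pair was the one at chr12:105101721-105102332.

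The highest HNF4A peak of the window, however, had no FOXA2 peak near it. It lay at chr12:104944272-104944742 with a score of 90 (rank 77, within the top 0.709% of the list), and the nearest FOXA2 centre was 25004 bp away. A second, weaker HNF4A peak at chr12:104948546-104948959 (score 19, rank 7915) stood beside it, with the nearest FOXA2 centre 22448 bp away. HNF4A at chr12:104923622-104924042, with a score of 49 (rank 1020), was the other unshared peak in the top 10.6%, and the nearest FOXA2 centre was 4329 bp away. HNF4A at chr12:105271936-105272353 (score 18, rank 8703) was the most remote, at 44671 bp from any FOXA2 centre.

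Most unshared HNF4A peaks were low and lay a few kb from FOXA2. Of the 15, 11 had a FOXA2 centre within 5000 bp and 3 had none within 20000 bp, and the median distance was 3980 bp. The same distances were not computed over the whole list, so they cannot be called particular to this dense window. Scores of the 15 ran from 16 to 90 with a median of 18, against 16 to 66 with a median of 41 for the 8 shared HNF4A peaks. Apart from the peak at 90, every unshared HNF4A score lay within the range of the shared ones. Shared peaks also had the higher median in the whole HNF4A list, at 27 against 22 for unshared ones, so that direction is not particular to the window.

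Beside the Serpina window's start, unshared HNF4A peaks lay at chr12:104853284-104854327 (score 18, rank 8703), chr12:104866626-104867092 (score 17, rank 9551), chr12:104869539-104869965 (score 18, rank 8703) and chr12:104895262-104895621 (score 17, rank 9551). The first of these was 1044 bp wide, the widest HNF4A peak of the window. Further along, chr12:104972459-104972834 and chr12:105008908-105009235 both had a score of 18 (rank 8703). All 6 were within 2 score units of the lowest value in the list.

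Around the shared site at chr12:105101721-105102332 there were 3 more HNF4A peaks, at chr12:105097901-105098181 (score 21, rank 6654), chr12:105098914-105099190 (score 16, rank 10522) and chr12:105103877-105104236 (score 17, rank 9551). The unshared peak at chr12:105139202-105139530 (score 27, rank 4216) lay 3984 bp from the FOXA2 peak of the next shared site. The one at chr12:105201577-105201913 had a score of 35 (rank 2499) and lay 1599 bp from a FOXA2 centre. These last 2 were above the median HNF4A score of 23.

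The 10 unshared FOXA2 peaks all lay within 5006 bp of an HNF4A centre, with a median distance of 1914 bp. As for HNF4A, these distances were not computed over the whole list and cannot be called particular to the window. Scores of the 10 ran from 11 to 41 with a median of 17.5. The 8 shared FOXA2 peaks had scores of 15 to 56 with a median of 21. The ranges overlapped, and the 2 highest FOXA2 peaks of the window were shared. In the whole FOXA2 list the median was likewise higher for shared peaks, at 19 against 14 for unshared ones.

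The highest unshared FOXA2 peak, at chr12:104900297-104900598, had a score of 41 (rank 540) and closed a group of 3 with chr12:104893353-104893679 (score 12, rank 6595) and chr12:104897342-104897794 (score 26, rank 1588). The HNF4A peak within this group was at rank 9551 of 11703, so the FOXA2 peak at rank 540 of 9338 stood higher in its own list. The next highest, at chr12:105011791-105012335, had a score of 29 (rank 1267) and lay 2992 bp from an HNF4A peak of score 18. Here too the FOXA2 peak stood higher in its list than its HNF4A neighbour.

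The others lay next to shared sites or close to HNF4A. FOXA2 at chr12:104871358-104871667 (score 19, rank 2915) and chr12:104919300-104919706 (score 19, rank 2915) each stood beside a shared site. The peaks at chr12:104970966-104971435 (score 11, rank 7797) and chr12:104974030-104975169 (score 13, rank 5752) preceded the shared site at chr12:104976404-104976787; the first was at the lowest score of the list, and the second, at 1140 bp, was the widest FOXA2 peak of the window. FOXA2 at chr12:105064278-105064634 (score 12, rank 6595) lay 1903 bp from HNF4A, and chr12:105199926-105200367 (score 16, rank 3964) lay 1599 bp from it.

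**Figure D3:**
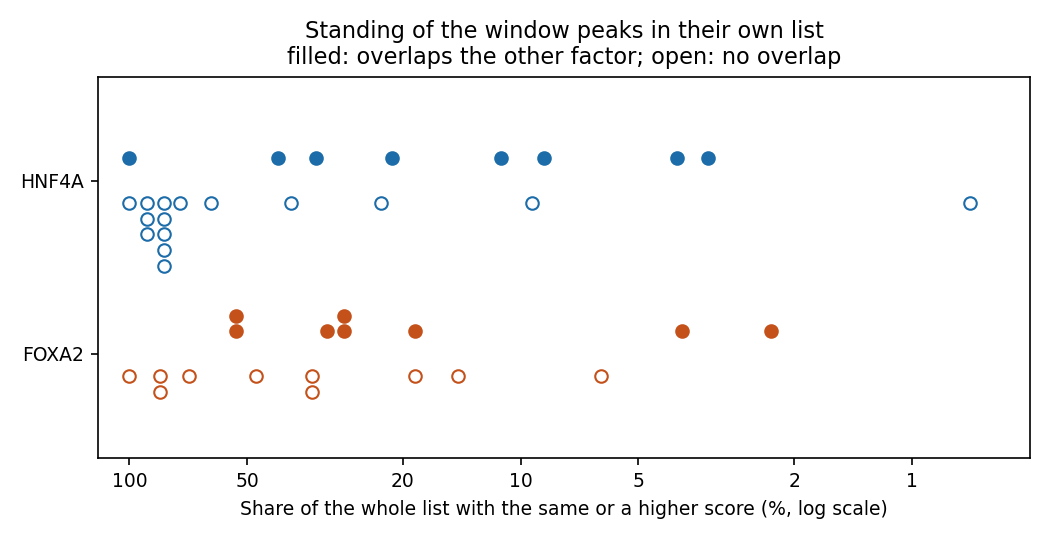
Each peak of the window placed by the share of its whole list with the same or a higher score, in percent on a log axis, with high-scoring peaks to the right. Points stacked at one place have equal scores. The point furthest to the right is the unshared HNF4A peak at 0.709%, and the FOXA2 point furthest to the right is the shared peak at 2.29%.

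Within their lists the peaks of the window spanned nearly the whole range of standing. HNF4A scores had a median of 21, against 23 in the whole list, and 11 of 23 (47.8%) were at or above the list median, against 52.5% of all HNF4A peaks. FOXA2 scores had a median of 19.5, against 15 in the whole list, and 14 of 18 (77.8%) were at or above the list median, against 53.5% of all FOXA2 peaks. The highest 10% of a list by rank, with ties, comprised 10.6% of all HNF4A peaks and 10.2% of all FOXA2 peaks, and the window had 5 HNF4A peaks (21.7%) and 3 FOXA2 peaks (16.7%) there. These counts are small, and the differences from the lists were not tested.

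The sites formed groups along the locus. Joining sites at most 10 kb apart gave 14 groups, of which 11 held both factors and 4 were single sites. The groups with 4 sites each were at chr12:104866626-104874423, chr12:104893353-104900598, chr12:104970966-104976867 and chr12:105097901-105104236, and they spanned 7.8, 7.25, 5.9 and 6.34 kb. Peaks thinned out toward the far end: over 5 equal stretches of 110 kb there were 9, 4, 6, 3 and 1 HNF4A peaks and 7, 6, 2, 2 and 1 FOXA2 peaks. The longest empty stretch, 72.7 kb, preceded the last site.

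The window was dense in peaks of both factors. When the genome was divided into 4797 tiles of 550 kb, a tile held a mean of 2.44 HNF4A peaks and 1.95 FOXA2 peaks. As many HNF4A peaks as the 23 of the window were in 2 tiles (0.0417%), and as many FOXA2 peaks as its 18 were in 12 tiles (0.25%). No fixed tile reached both numbers. Of the 12 tiles dense in FOXA2, 11 contained an input region and 1 did not, and neither of the 2 tiles dense in HNF4A contained one. The share of all 4797 tiles that contain an input region is not given here, so these counts have no background to be read against. With the tiles moved by 50% of their width the shares were 0.104% for HNF4A and 0.25% for FOXA2.

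**Figure D4:**
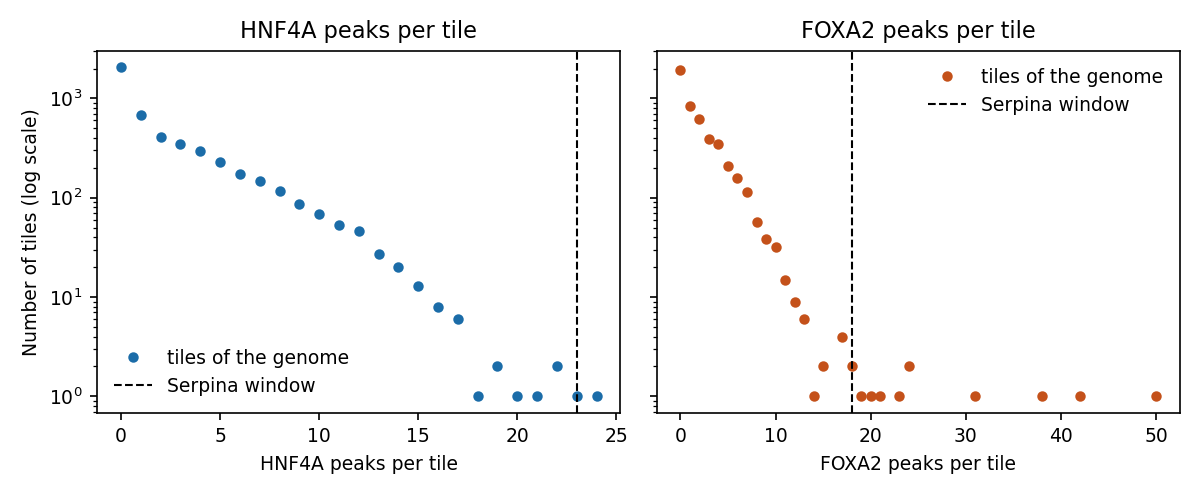
Number of 550 kb tiles of the genome (log axis) that held each number of HNF4A peaks (left) or FOXA2 peaks (right). The dashed lines mark the 23 HNF4A and 18 FOXA2 peaks of the Serpina window, which lie toward the upper end of both distributions; the tile with the most held 24 HNF4A peaks and another held 50 FOXA2 peaks.

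The edges of the window were set around the locus, which favours it over tiles with fixed edges. With windows of the same width allowed to start at any peak, 9 separate windows held 23 or more HNF4A peaks, 15 held 18 or more FOXA2 peaks and 3 reached both. One of the 3 was the Serpina locus itself. The others were chr5:90787230-91337230, with 24 HNF4A and 19 FOXA2 peaks, and chr10:126787529-127337529, with 26 HNF4A and 18 FOXA2 peaks. None of the 3 had an input region within 10 kb.

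No input region was listed in the window or within 1 Mb of it. Chromosome 12 had 10 input regions, and the nearest lay 6.2 Mb beyond the far edge at chr12:111600682-111601056 (score 15); on the other side the nearest was 25.4 Mb away. Just outside the window, an HNF4A peak of score 25 at chr12:104847300-104848200 lay 1.8 kb before its start. The next HNF4A peak after its end was 227 kb away with a score of 27, and the closest FOXA2 peaks were 675 kb before it (score 14) and 585 kb after it (score 37). The window thus held every FOXA2 peak listed between those outer positions. With only 10 input regions on the chromosome, a window of this width without one is unremarkable. The duplicated sequence was not located on mm9, and the handling of reads with several possible positions is unknown. The lack of an input region is therefore no check of mapping to the copies.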

How the data were processed

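ChIP-seq peaks were analysed from 3 libraries, 1 each for HNF4A, FOXA2 and input. Each deposited file lists the regions of 1 library by position, with a score that is a whole number of undefined scale. Scores in these deposited lists were therefore compared only within a list. Coordinates are on mm9, according to the submitters' processing notes; aligner, peak caller, threshold and depth are not stated in the sources used here. The lowest scores were 16 for HNF4A, 11 for FOXA2 and 12 for input, so each list ends at a threshold and a missing peak does not show that a factor was absent.

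Starts and ends were read as 1-based and inclusive. A peak belonged to the window, or was shared, when it overlapped by at least 1 bp. Tiles ran from position 1 to the last listed region of each chromosome, without the mitochondrial one, and peaks were placed by their centres. Promoters were aligned globally with Biopython 1.88 (match 1, mismatch -1, gap opening -2, extension -0.5), and motifs were searched on both strands. The overlap computation was checked for errors on peaks planted at known positions; no observed overlap was set against a simulated one. All peaks in the window and all 6 genes were named. The members, motifs and settings were chosen with earlier results of these data known. Computation used Python 3.11.15 with scipy 1.17.1, pandas 2.3.3 and numpy 2.4.6, and plots were drawn with matplotlib 3.10.9. A table of protein sequences was not used here.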

Additional observations from a re-analysis of the deposited data

How the results depend on the processing

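Of 30 changed settings over 12 results, 26 left a count within 1.5 times or a share within its interval. Among these 26 is the share of tiles as dense in HNF4A, which went from 0.0417% to 0.104% with the tiles moved. Its interval is wide because it rests on 2 of 4797 tiles, so it is a weak check. Keeping only HNF4A peaks at or above the list median left 11 of the 23 in the window. Allowing 1 mismatch gave 2 promoters with the HNF4 motif instead of 0. The median promoter identity of 86.1% became 94.6% without gaps, and 94% with only the end gaps left out, a setting added after the data were seen; the listed gene starts differ between copies. Shared peaks of each factor numbered 7 or 8 under every definition tried. The shares were less steady than the counts. With only peaks at or above the median score of their list, the 7 shared were of 11 HNF4A and of 14 FOXA2 peaks. The share over the whole lists was not computed for that setting. The planned comparison of proteins was not run. No paired analysis was possible because each group has 1 library. Depth is unknown, so low peaks cannot be weighed by it.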
